A study of Mus musculus with 2 samples.

Results

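The genes examined here are 7 classic targets of POU5F1 (OCT4) and SOX2 in mouse embryonic stem cells: Fgf4, Fgf15, Utf1, Fbxo15, Zfp42, Spp1 and Jam2. They were chosen by name, and every deposited POU5F1 peak within 50 kb of 1 of their transcript starts was taken. They are 7 of the 22238 protein-coding genes of the mm9 annotation. On mm9, 7 of the 5515 whole-series peaks met the rule, and on mm10 6 of the 3994 optimal peaks did.

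POU5F1 is a POU-domain transcription factor, and SOX2 is a DNA-bending factor of the HMG-box family. At many enhancers of pluripotent cells the 2 proteins bind side by side on a composite element, a SOX half-site followed by an octamer-like POU site. POU5F1 can also bind the octamer alone, or pair with itself on palindromic elements called PORE and MORE. The enhancers on which this was worked out include a composite element in the 3′ UTR of Fgf4, a composite element downstream of Utf1, an octamer in the promoter of Zfp42 and a PORE in the first intron of Spp1. An enhancer with a composite element is also known upstream of Fbxo15.

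Chromatin immunoprecipitation followed by sequencing (ChIP-seq) was carried out with an antibody to POU5F1. The samples form 1 group, 2 biological replicates of the male 129/Ola embryonic stem cell line E14TG2a.4, unmodified and untreated as far as the labels say. The labels also point to a control experiment, which was not analysed here. The files used are peak lists without read counts, so sequencing depth is unknown, and RNA was not measured. On mm9 there was 1 list per replicate (1330 peaks for replicate 1 and 6324 for replicate 2) and 1 for the whole series. On mm10 there were an optimal and a conservative list (3994 and 2676 peaks) from an irreproducible discovery rate (IDR) procedure, and relaxed lists of 300000 entries of peaks and background for each replicate and for the pooled data. Signal is the authors' own value per peak. Its scaling is not stated, so a site was described by its rank within a list and never by signal across lists. The called lists differ in length, so neither ranks nor shares of a list measure a difference between them.

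The sequences below, read from the mm9 genome (NCBIM37) and written 5′ to 3′, carry the findings. Capitals mark the match to a POU element, and the strand is given with each region. The first 4 are 105-base stretches of whole-series peaks, from the shared Fgf4 and Fgf15 site, the Utf1 site and both Jam2 sites, each around its best composite match. The match of the Jam2 upstream peak has 3 mismatches, outside the limit of 2 used for the counts, and the others have 2. The composite was searched as the SOX half-site CATTGT, then 1 or 4 bases of any kind, then the octamer ATGCAAAT, on both strands.
Fgf4 and Fgf15 shared peak, chr7:152074639-152074743, plus strand: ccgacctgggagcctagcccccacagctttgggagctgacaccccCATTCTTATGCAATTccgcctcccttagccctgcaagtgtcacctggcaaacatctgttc
Utf1 downstream peak, chr7:147131535-147131639, minus strand: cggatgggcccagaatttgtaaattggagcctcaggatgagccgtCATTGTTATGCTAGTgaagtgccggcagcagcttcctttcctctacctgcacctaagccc
Jam2 upstream peak, chr16:84769546-84769650, plus strand: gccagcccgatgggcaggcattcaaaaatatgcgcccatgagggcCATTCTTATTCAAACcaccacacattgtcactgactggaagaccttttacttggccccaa
Jam2 intronic peak, chr16:84779450-84779554, minus strand: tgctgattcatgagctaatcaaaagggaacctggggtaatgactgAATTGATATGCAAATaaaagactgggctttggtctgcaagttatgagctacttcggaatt
The next is the intronic part of the replicate 2 peak in Zfp42, with a MORE match of 1 mismatch.
Zfp42 intronic peak, chr8:44389914-44390029, plus strand: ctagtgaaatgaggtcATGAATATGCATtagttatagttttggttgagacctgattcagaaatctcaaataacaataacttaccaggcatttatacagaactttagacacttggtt
The last 3 are known elements that lay in no whole-series peak, the composite of the Fgf4 3′ UTR, the octamer of the Zfp42 promoter and the PORE of the Spp1 first intron.
Fgf4 3′ UTR composite, chr7:152050299-152050316, plus strand: CTTTGTTTGGATGCTAAT
Zfp42 promoter octamer, chr8:44392522-44392569, plus strand: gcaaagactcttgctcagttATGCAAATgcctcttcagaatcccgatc
Spp1 first intron PORE, chr5:104864974-104865028, plus strand: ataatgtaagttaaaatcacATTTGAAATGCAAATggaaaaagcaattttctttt

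In the mm9 whole-series list, 6 of the 7 genes had a peak within 50 kb of a transcript start, where 27.3% of all protein-coding genes did. Zfp42 was the exception. The replicate 2 list held a peak near all 7 (30.1% of all genes), and the replicate 1 list a peak near 5, without Zfp42 and Spp1 (8.15% of all genes). On mm10, 6 of the 7 had an optimal peak (18.9% of the 21099 protein-coding genes with a known strand) and 6 a conservative peak (13.3%), and in both lists Spp1 was the exception. No gene therefore lacked a called site in all 5 lists, and Fgf4, Fgf15, Utf1, Fbxo15 and Jam2 had one in each. The farthest called peak inside the 50 kb limit lay 38.8 kb from the Jam2 start, and 0 further peaks lay between 50 and 100 kb from any of the 7 genes in these lists.

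**Figure D1:**
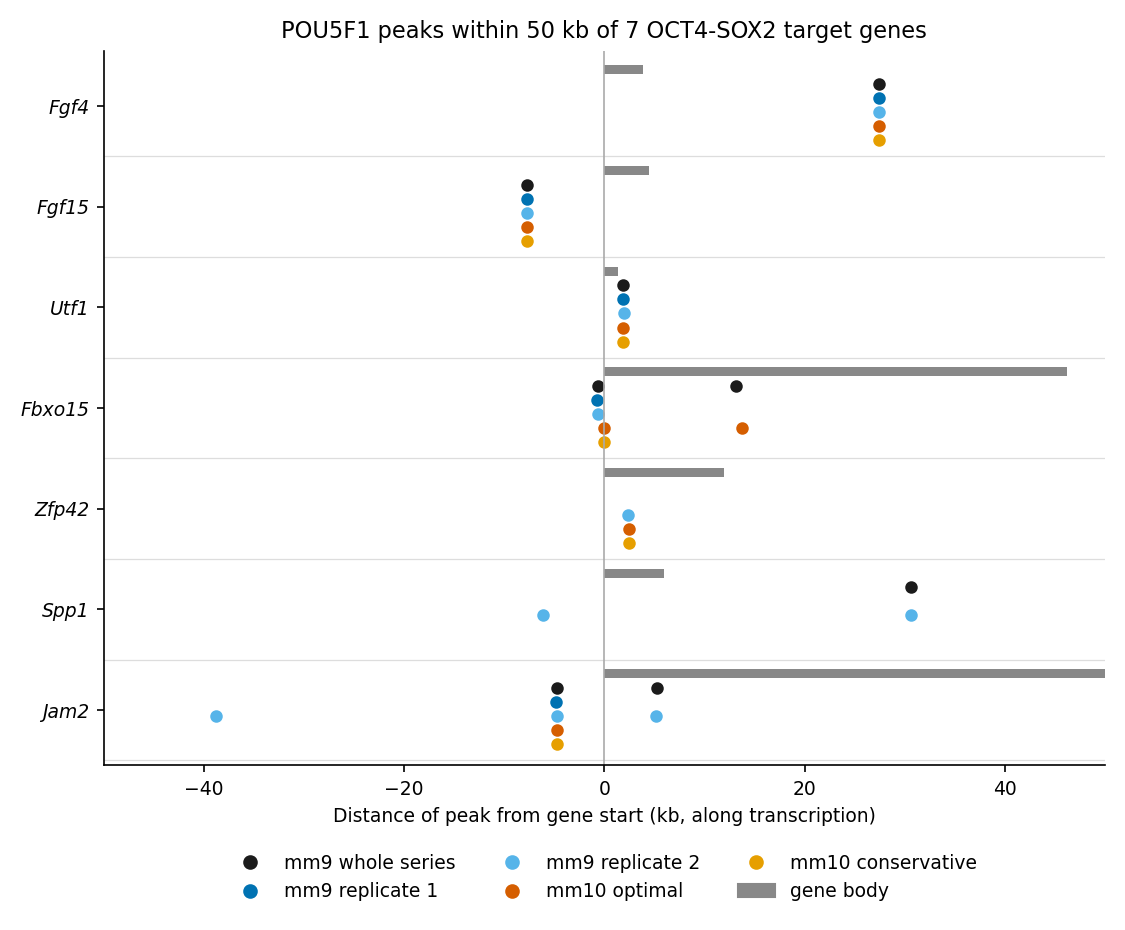
Called POU5F1 peaks around the 7 genes in the 5 peak lists, by distance of the peak centre (mm9) or summit (mm10) from the gene start in kb, positive along transcription; the grey bar is the mm9 gene body, which for Jam2 runs past the right edge. Each dot is a peak, and 5 of the 7 genes have a dot in all 5 lists.

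The genes were spread over most of the range of signal ranks. Ranked by their strongest whole-series peak, Jam2 had a higher signal than all but 2.70% of the 6064 genes with a peak, and Utf1 than all but 2.85%. The neighbours Fgf4 and Fgf15 followed at 12.2% through 1 shared peak, Fbxo15 at 13.4%, and Spp1 at 66.6%. In the optimal list the order at the top was Utf1, Fgf4 with Fgf15, and Jam2, with 5.63%, 6.18% and 6.33% of the 3996 genes with a peak higher. Fbxo15 followed at 37.6% and Zfp42 at 80.9%. Each list carries 1 value per peak with no replicate error, so the order of the first 3 sites of the optimal list, which lie within 1 percentage point of each other, cannot be taken as a difference.

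Fgf4 encodes a fibroblast growth factor that embryonic stem cells secrete and that, through ERK signalling, readies them for differentiation. Fgf15, its neighbour on chromosome 7, encodes a growth factor of the endocrine FGF group, the mouse counterpart of human FGF19. Fgf4 occupies 152047291 to 152051148 and Fgf15 152082437 to 152086858 in mm9, both on the plus strand. The only called site within 50 kb of either lay between them, at chr7:152074455-152074962 in the whole-series list, 508 bp wide and intergenic. Its centre was 27.4 kb downstream of the Fgf4 start and 7.73 kb upstream of the Fgf15 start, so Fgf15 was the nearest protein-coding gene. Its signal of 9.1 ranked 533 of 5515, with 9.65% of the list higher and a −log10 p of 42.5.

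The replicate lists held the same site. In replicate 1 it spanned 152074559 to 152074868 with a signal of 7.47 and rank 476 of 1330, which left 35.7% of that list higher. In replicate 2 it spanned 152074504 to 152074919 with a signal of 15.87 and rank 466 of 6324, with 7.35% higher. On mm10 the site was 144888715 to 144888877, 163 bp wide, in both the optimal and the conservative list. It ranked 199 by signal in each, with 4.96% of the optimal list higher, and carried the highest IDR score of 1000. The distances on mm10, 27425 bp from the Fgf4 start and 7721 bp from the Fgf15 start, were within 8 bp of those on mm9.

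The composite match of this peak, on the plus strand 17 bp from the peak centre, had 1 mismatch in the SOX half-site and 1 in the octamer. The known Fgf4 enhancer element lies elsewhere: a composite with a 4-base spacer and 2 mismatches was found at chr7:152050299-152050316, inside the Fgf4 3′ UTR and 3016 bp from the gene start. No called mm9 peak covered it, and the nearest was the shared site, 24.1 kb away in the whole-series list and 24.2 kb away in each replicate list. On mm10, the relaxed list of replicate 1 had an entry in the Fgf4 gene body 2317 bp from the start, with a signal of 14.3 and rank 2221, and another at 3869 bp with rank 83157. In replicate 2 the 2 entries of the gene body lay at 1596 and 2857 bp, with ranks 196993 and 203307. The pooled entry at 3054 bp, the closest to the offset of the known element, had rank 69428. These entries are from lists that include background by construction, and none was in a called list. Near Fgf15, replicate 2 had a relaxed entry 857 bp upstream of the start with a signal of 15.8 and rank 4761, and replicate 1 had none there.

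Spp1 encodes osteopontin, a secreted, integrin-binding phosphoprotein of the SIBLING matrix family, and lies at chr5:104864137-104870069 on the plus strand. Peaks near it were called in 2 of the 5 lists. The whole-series peak, chr5:104894608-104894939, lay 30.6 kb downstream of the Spp1 start in an intron of Pkd2, which encodes the ion channel polycystin-2 and whose start was nearer, at 6.18 kb. The signal was 4.99 and the rank 3324, with 60.3% of the list higher and a −log10 p of 9.33. Replicate 2 held the same site with a signal of 8.31, rank 3163 and a q-value of 0.0016, and a second peak of the same signal 6.13 kb upstream of Spp1 (chr5:104857900-104858118) with a q-value of 0.0736. Replicate 1, the optimal list and the conservative list held 0 peaks near Spp1. In the relaxed list of replicate 1 the highest entries near Spp1 lay 47.0 kb and 982 bp upstream, ranked 4568 and 5386, and neither had a counterpart in replicate 2.

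The pooled relaxed mm10 list placed the Spp1 site at 30.6 kb beside the lowest-ranked optimal peak of the 7 genes, and the replicate lists did not. The Spp1 site ranked 31363 in replicate 1, 2675 in replicate 2 and 3311 in the pooled list, where its signal was 28.4119. The called Zfp42 site had a pooled signal of 28.3863 and rank 3318, just below it, but ranked 3952 in replicate 1 and 4200 in replicate 2. Of the 3311 pooled entries ranked as high as the Spp1 site, 224 (6.77%) overlapped no optimal peak. The exact PORE of the first intron lay 864 bp from the Spp1 start at chr5:104864994-104865008. The nearest called peak was 29.6 kb away in the whole-series list and 6.88 kb away in that of replicate 2. On mm10 the octamer of this stretch, 874 bp from the RefSeq start, was touched by 0 entries of the relaxed list of replicate 1, by 0 of the pooled list and by 1 of replicate 2, ranked 180328.

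Utf1 encodes undifferentiated embryonic cell transcription factor 1, a chromatin-bound protein of pluripotent cells. The gene occupies chr7:147129688-147131011 on the plus strand, and its peak began beyond the gene end, at chr7:147131330-147131866. The centre lay 1.91 kb from the gene start. A signal of 13.8 gave it rank 107 in the whole-series list, with 1.92% higher and a −log10 p of 65.6. In replicate 1 the signal was 7.47 and the rank 476, the same as for the Fgf4 and Fgf15 site, with 35.7% higher. In replicate 2 the signal was 24.19 and the rank 94, with 1.47% higher. On mm10 the summit lay 1812 bp from the start in a peak from 139945587 to 139945767, ranked 174 in the optimal list with 4.33% higher and a score of 1000.

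The known upstream element of Fbxo15 was not located in the sequence, so whether a peak covers it was not examined. Among the other known elements, those of Fgf4, Utf1, Zfp42 and Spp1, that of Utf1 was the 1 covered by called peaks. The composite match at chr7:147131580-147131594 on the minus strand, 1899 bp from the start, lay inside the peak in all 3 mm9 lists and 11 bp from the centre of the whole-series peak. Its SOX half-site had 0 mismatches and its octamer 2. Away from this site, the highest entry within 50 kb of Utf1 in the relaxed mm10 list of replicate 1 lay 14.6 kb upstream with rank 2374. In the pooled list it lay 35.2 kb downstream with rank 8692, and in replicate 2 9.56 kb downstream with rank 22643. Neither the replicate 1 nor the pooled entry overlapped an entry of replicate 2.

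Zfp42 encodes REX1, a zinc finger protein of the YY1 family that is widely used as a marker of naive pluripotency. It lies on the minus strand at chr8:44380422-44392363. On mm9 its only called peak was in replicate 2, chr8:44389882-44390029, 2.41 kb into the gene, where 32 of its 148 bases overlapped a non-coding exon and 116 the intron. With a signal of 6.05 it ranked 5829 of 6324, so 92.2% of the list was higher, and its q-value was 0.0983. On mm10 a site at nearly the same distance, 2.46 kb into the gene (43304383 to 43304718), was in both IDR lists, with rank 3087 in the optimal list (77.3% higher, score 622) and 2339 in the conservative list (87.4% higher, score 718).

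The Zfp42 site held no composite match and no exact octamer. Its best match was to the MORE, with 1 mismatch and 20 bp from the centre, an element present at that tolerance in 2.45% of replicate 2 peaks. The promoter octamer, chr8:44392542-44392549, lay 182 bp upstream of the start and was exact. The nearest called peak was 2.51 kb away in the replicate 2 list and 350 kb away in the whole-series list. On mm10 the octamer was covered by a relaxed-list entry of replicate 2, ranked 3323, which is above the rank of 4200 of the called intronic site in that replicate. In replicate 1 it was covered by 0 entries, while the intronic site ranked 3952, and in the pooled list the promoter entry ranked 10241. An exact octamer was present in 570 of the 32851 promoters of the RefSeq table for mm10 (1.74%), each 300 bases around a start. Of the 4 genes in that table, Zfp42 had an octamer in its 1 promoter and Spp1 in 1 of 2, while Fgf4 and Utf1 had none. The Spp1 octamer lay 874 bp downstream of the gene start and is the one described above with the first intron PORE.

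Fbxo15 encodes an F-box protein, a substrate-recognition subunit of SCF ubiquitin ligases, and its locus served as a reporter in early reprogramming work. In mm9 the gene runs from 85104550 to 85150768 on chromosome 18. The upstream peak, from 85103667 to 85104182, had its centre 626 bp before the gene start. A signal of 8.81 gave it rank 583 in the whole-series list, with 10.6% higher and a −log10 p of 32.9. In replicate 1 it had a signal of 5.6, rank 1132 of 1330 (85.0% higher) and a q-value of 0.0734, and in replicate 2 a signal of 13.6 and rank 757 of 6324 (12.0% higher). On mm10 it ranked 1362 in the optimal list with a score of 1000 and 1306 in the conservative list with a score of 659.

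A second Fbxo15 peak, 13.1 kb inside the gene at 85117506 to 85117828, was among the weakest of the whole-series list, with a signal of 3.79, rank 5376 and 97.5% of the list higher. It was in neither replicate list on mm9. In the mm9 annotation, the start of 1700034H14Rik, 2.39 kb away, was nearer to it than that of Fbxo15. In the mm10 annotation, its nearest protein-coding start was that of Fbxo15, 13.7 kb away. On mm10 it was in the optimal list with rank 2695 and a score of 908, and not in the conservative list. The 2 Fbxo15 sites were 13.7 kb apart on mm9 and 13.8 kb apart on mm10. The offsets of the upstream site from the start, 626 bp before it on mm9 and 70 bp before it on mm10, differ with the annotated start used. No composite match with up to 2 mismatches was found in either peak. With 3 mismatches allowed, 1 lay in the upstream peak, 42 bp from the centre, with 0 mismatches in the SOX half-site. All 3 mismatches were in the octamer, and at that tolerance 46.1% of all whole-series peaks held a match.

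Jam2 encodes junctional adhesion molecule B, an immunoglobulin-superfamily protein of cell contacts, and occupies chr16:84774368-84826173 on the plus strand. Its upstream site was the highest-ranked of the 7 whole-series peaks and was called in both mm9 replicate lists. The peak, chr16:84769364-84769871, was intergenic and 4.75 kb before the start. A signal of 14.1 gave it rank 99, with 1.78% of the list higher and a −log10 p of 70.4. In replicate 1 it had a signal of 14.31 and rank 42 of 1330 (3.08% higher), and in replicate 2 a signal of 21.16 and rank 160 of 6324 (2.51% higher). On mm10 it ranked 205 in the optimal list, with a score of 1000.

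The intronic Jam2 peak, chr16:84779437-84779793, lay 5.25 kb into the gene with a signal of 5.48 and rank 2820 (51.1% higher). In replicate 2 its signal of 5.84 ranked 6183 (97.8% higher), and it was not called in replicate 1 or on mm10. The relaxed lists had overlapping entries near this offset. They lay 5248 bp into the gene in replicate 1 (rank 1704), 5397 bp in replicate 2 (rank 231438) and 5280 bp in the pooled list (rank 12092). On mm9 the site was thus called in replicate 2 and not in replicate 1, while on mm10 the entry of replicate 1 ranked far higher. The summits of the mm10 entries differ between the replicates, so they may not mark the same position. Another peak, in replicate 2 alone, lay 38.8 kb upstream of Jam2 and 81 bp from the start of Mrpl39, a mitochondrial ribosomal protein gene, with a signal of 7.56 and a q-value of 0.0221. The upstream peak, though the stronger, held a composite match only with 3 mismatches, 19 bp from the centre. At that tolerance 46.1% of all whole-series peaks held one. The intronic peak held a match with 2 mismatches, both in the SOX half-site, 113 bp from the centre. Its octamer was exact, which made 1 of the 7 whole-series peaks with an exact octamer, where 15% of all 5515 held one.

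**Figure D2:**
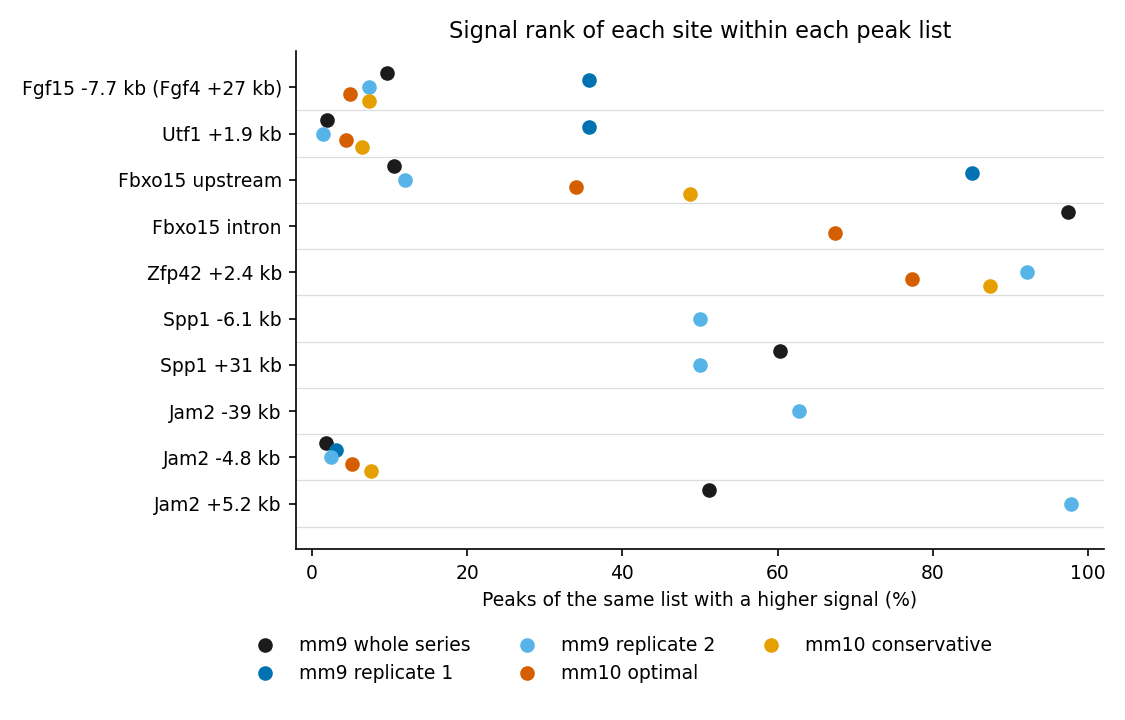
Share of the peaks of a list with a higher signal than the site (x axis, %), for each called site of the 7 genes (rows) in each of the 5 lists (colours); a missing dot means that the list did not call the site. The Jam2 site 4.75 kb upstream lies below 8% in all 5 lists, and the lists differ in length, so dots of different colours are not to be compared as levels.

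Of the 7 whole-series peaks, 4 overlapped a peak in both replicate lists, and 21.9% of all whole-series peaks did. These were the shared Fgf4 and Fgf15 site, the Utf1 site and the upstream sites of Fbxo15 and Jam2. The weaker sites of Spp1 and the Jam2 intron overlapped a peak of replicate 2 only. Of the 6 optimal mm10 peaks, 3 lay in the top 3994 entries of both relaxed replicate lists, against 43.1% of all optimal peaks. The Jam2 site ranked 131 in replicate 1 and 215 in replicate 2, the Fgf4 and Fgf15 site 278 and 164, and the Utf1 site 832 and 88. The Fbxo15 upstream site ranked 12857 and 1103, and its intronic site 194068 and 2181. The Zfp42 site ranked 3952 and 4200, close in both lists and just outside the limit in the second.

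Replicate 1 placed 4 of these 6 sites lower than replicate 2 did. The same held for 2396 (64.7%) of the 3704 optimal peaks found in both relaxed lists, whose median rank was 3146 in replicate 1 and 1966.5 in replicate 2. Per the file descriptions, the relaxed list of replicate 1 was made from more input files than that of replicate 2, and the part of this in the ranks was not tested.

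**Figure D3:**
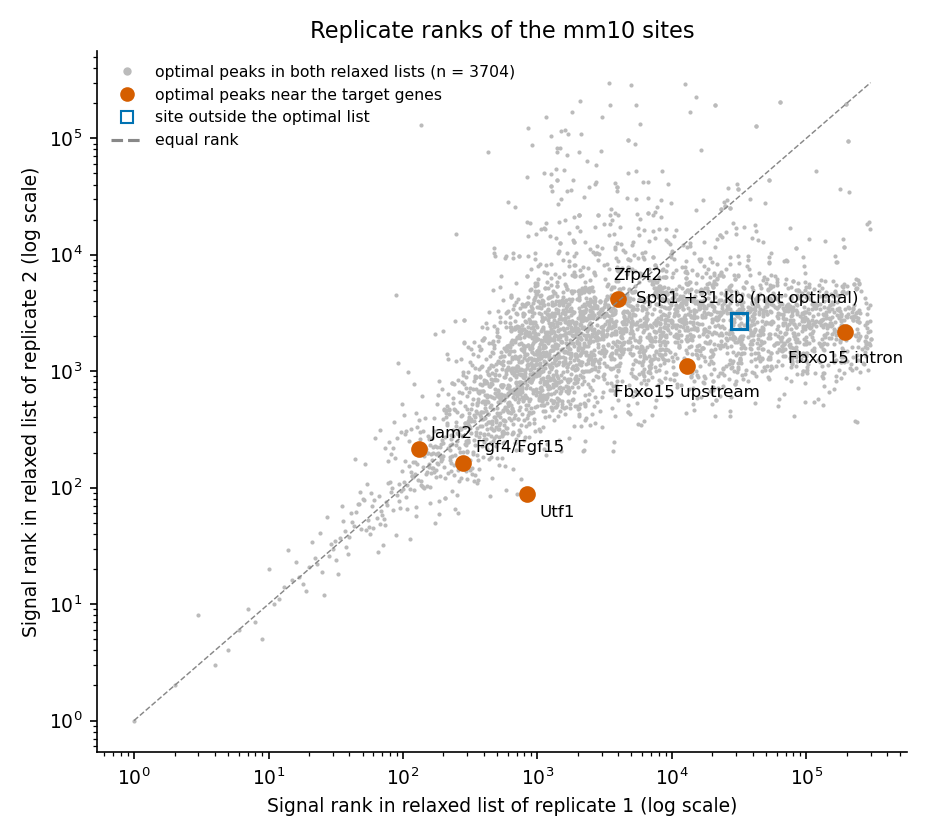
Rank by signal in the relaxed mm10 list of replicate 1 (x axis, log scale) and of replicate 2 (y axis, log scale), for 3704 optimal peaks (grey), the 6 optimal peaks near the 7 genes (orange) and the Spp1 site at 30.6 kb (open square), which is outside the optimal list; the dashed line marks equal rank. The Jam2, Fgf4 and Fgf15, and Utf1 sites are among the first 1000 in both replicates, and the Fbxo15 intronic site ranks 2181 in replicate 2 and 194068 in replicate 1.

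With up to 2 mismatches, the composite was present in 3 of the 7 whole-series peaks, those of Fgf4 and Fgf15, of Utf1 and of the Jam2 intron, and in 15% of all 5515. It was present in 0.87% of regions of the same lengths 2 kb away from the peaks. Taking all sequence within 50 kb of the 7 genes, 17 composite matches were found, of which 3 lay in a whole-series peak. Of 41 exact octamers 1 lay in a peak, and of 5 PORE matches 0 did. The 7 peaks, 323 to 537 bp wide, cover only a small part of this sequence, and that part was not computed. The counts in peaks therefore cannot be read as low or high, and they do not show that the other matches are unbound. Spp1 had the most matches of the 7 genes, with 4 composites, 13 octamers and 3 POREs, and 0 of them lay in a whole-series peak. For Fbxo15 the counts were 2, 8 and 1, again with 0 in a peak. Zfp42 had 3, 9 and 1, and no whole-series peak within 50 kb in which they could lie. A match is a string of letters and not by itself a binding site.

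**Figure D4:**
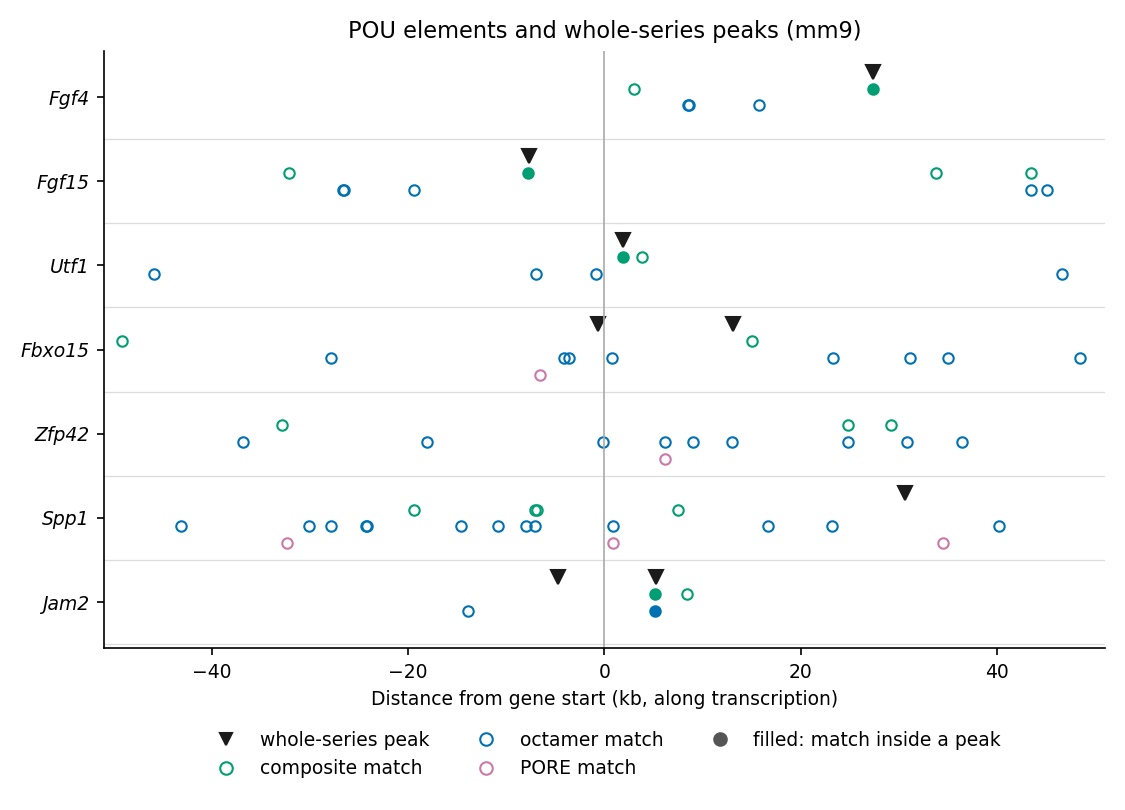
Matches to the composite (green), the octamer (blue) and the PORE (pink) within 50 kb of each mm9 gene start, by distance from the start in kb, positive along transcription; filled circles lie inside a whole-series peak and triangles mark the peaks. Matches near both Fgf4 and Fgf15 are drawn in both rows. The 17 distinct composite matches thus appear as 19 circles, and the 3 that lie in a peak as 4 filled circles. The Fgf4 match 3.02 kb from the start, the known 3′ UTR element, is open.

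Peaks within 50 kb were also counted for relatives of the 7 genes, without a test between families. The share of all protein-coding genes under the same rule was 27.3% for the whole-series list, 8.15% for replicate 1, 30.1% for replicate 2, 18.9% for the optimal and 13.3% for the conservative list. Of 10 other pluripotency genes reported as POU5F1 targets, 10 had a whole-series peak, 7 a replicate 1 peak (8.15% of all genes) and 7 an optimal mm10 peak (18.9% of all genes). Of the 20 other FGF ligands, 7 had a whole-series peak (35%) and 6 an optimal peak (30%). The junctional adhesion relatives of Jam2 gave 2 of 5 in each of the 5 lists, whose shares over all genes run from 8.15% to 30.1%. Of the 4 other SIBLING genes, 0 had a peak in the whole-series, replicate 1 or IDR lists and 2 had one in replicate 2 (30.1% of all genes). The other F-box genes with Fbxo symbols gave 9 of 36 in the whole-series list (25%) and 7 of 35 in the optimal list (20%), near the share of all genes. Of the 2 other YY1-family genes, 1 had a whole-series peak (27.3% of all genes) and 0 an optimal peak (18.9%).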

How the data were processed

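The 2 samples were mapped to 1 group from the labels, which number them as biological replicates; whether their cultures were independent is not stated further. The authors deposited peak lists, all analysed as given. The signal of each peak is the authors' deposited value, with scaling not stated. The deposited mm9 lists also give a −log10 p-value, none below 5, and a q-value per peak. The deposited mm10 lists give −log10 q, which was not used, and the IDR lists a score of at most 1000. Builds and output types are taken from the descriptions that accompany the files. The aligner, the peak caller, the IDR threshold and how replicates were combined in the whole-series list are not stated in the labels or files, and depth and its precision are unknown. The replicate and whole-series mm9 lists may share reads.

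Peaks were assigned by centre (mm9, GENCODE M1 on NCBIM37, any transcript start of a gene) or summit (mm10, RefSeq gene starts on GRCm38.p6, the strand from the RefSeq promoter table or GENCODE). Offsets are from the gene start. Peaks were ranked by signal, ties sharing the best rank, and overlap was at least 1 bp. Composites were allowed 2 mismatches, octamers 0, PORE and MORE 1. No mm10 genome was used, so motifs in peaks were searched on mm9 only, and coordinates were not converted. Sites were matched between builds by their distance from the gene start. The 2 sites of Fbxo15 were matched by the distance between them, because the annotated start used differs. No test was made: counts stand beside the share of all genes or peaks under the same rule. Named genes were the 7 genes, and others only where nearest to one of their peaks; families were counted. The genes and families were chosen with earlier results of these data known. Alternatives were other windows, thresholds, overlaps, mismatches and single replicate lists. Scripts were tested on simulated data. Python 3.11.15, pandas 2.3.3, numpy 2.4.6, pysam 0.24.0 and samtools 1.23.1 were used.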

Additional observations from a re-analysis of the deposited data

How the results depend on the processing

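Of 34 recomputed counts, 30 stayed within 1.5 times of the value reported. The 7 whole-series peaks near the genes became 4 with a −log10 p of at least 10, and ranged from 4 (replicate 1 list) to 9 (replicate 2 list) when a single replicate list was used, so the number of sites per gene depends on the replicate. The genes with a peak ranged from 5 to 7 over the same 2 lists. The composite was present in 0 of the 7 peaks with 1 mismatch allowed, where 2.76% of all whole-series peaks held it, and in 5 with 3 allowed, where 46.1% did. Within 10 kb of a start, 4 genes had a whole-series peak (8.65% of all genes). With each peak given only to its nearest protein-coding start, 4 did (13.5% of all genes). No paired analysis was possible because there is 1 group of samples and no comparison between groups. Read depth is unknown, so a site missing from a list was not called there and is not shown to be unbound.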
